A study of Homo sapiens with 22 samples.

Results

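Genes of glycolysis and of the response to low oxygen were followed in 2 established human neuroblastoma cell lines during chemically induced differentiation. The set held 35 genes, listed by symbol, of the 35237 rows of the gene table, and all 35 were found. By role they were 4 glucose and lactate transporters, 15 glycolytic enzymes, 2 regulators of fructose 2,6-bisphosphate, 4 enzymes that decide the fate of pyruvate, 6 further targets of the hypoxia-inducible factors (HIF), and 4 genes for HIF subunits and the enzymes that mark them for destruction. The rule used symbols and no measured value.

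RNA sequencing covered 22 libraries of SK-N-AS and GIMEN, both labelled as mesenchymal neuroblastoma lines. PP121 is a dual inhibitor of tyrosine kinases and phosphoinositide 3-kinases, and bufalin is a cardiac glycoside that blocks the sodium pump. Untreated SK-N-AS cells were kept in DMEM with 10% serum (n = 4). In stage 1 (S1D4, n = 4) they spent 4 days in DMEM with 1% serum and 5 µM PP121. Stage 2 took S1D4 cells on in Neurobasal medium with B27 supplement and no serum, with 5 µM PP121 and 100 nM bufalin. It gave S2D4 (n = 4) after 4 days and S2D30 (n = 4) after 30 days. Untreated GIMEN cells were kept in RPMI with 10% serum (n = 3), and treated GIMEN cells received 2.5 µM PP121 and 10 nM bufalin in RPMI with 1% serum for 30 days (D30, n = 3). From S2D4 to S2D30 compounds, doses, serum and medium stayed the same, and the stated difference is time. At every other step several of compound, serum, medium and time changed together, so their effects cannot be told apart. The lines received different doses and media. The labels give no oxygen level and no glucose measurement.

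Glycolysis breaks glucose down to pyruvate in the cytosol, and lactate dehydrogenase turns pyruvate into lactate when it does not enter the mitochondria. HIF is made of an oxygen-regulated alpha subunit and a stable partner. With oxygen present, prolyl hydroxylases of the EGLN family mark the alpha subunit for destruction, and when oxygen is short the surviving factor raises transcripts of most glycolytic enzymes, glucose transporters, VEGFA and EGLN3 itself. Neuroblastomas express both alpha subunits, HIF1A and EPAS1 (HIF-2 alpha), and EPAS1 is known in sympathetic precursors.

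Libraries held 16456484 to 37506800 counts, and the members took 0.824% to 1.892% of them. Levels are CPM, the usual share of a library's counts set to a common total, under 1 scaling of all libraries. Changes are log2 fold changes with their standard error (SE) from edgeR's quasi-likelihood test, with p-values adjusted by Benjamini-Hochberg over all genes tested and a threshold of 0.05. The labels do not say that replicates were separate cultures, so p-values measure the spread between these libraries, which may be technical. Library 4 of S2D4 stood apart, with an adrenergic marker sum of 4361 CPM against 1063 to 1190 CPM in the other 3, and results that rest on it are given with and without it. Untreated SK-N-AS, although labelled mesenchymal, had adrenergic sums of 4920 to 10925 CPM against 396 to 419 CPM in untreated GIMEN, and mesenchymal sums of 1681 to 2193 CPM against 41126 to 42812 CPM. Those adrenergic sums split, with 5341 and 4920 CPM in untreated SK-N-AS libraries 1 and 2 and 10925 and 9603 CPM in libraries 3 and 4. S1D4 split likewise, with 5932 and 5897 against 8764 and 8286 CPM. In S2D30 the adrenergic sums were 230 to 284 CPM and the mesenchymal sums 3420 to 3932 CPM. In treated GIMEN they were 228 to 269 and 20633 to 22131 CPM. Proliferation markers summed to 855 to 1064 CPM in untreated SK-N-AS and 39.8 to 43.3 CPM in S2D30, and to 1191 to 1215 CPM in untreated GIMEN and 46.6 to 51.2 CPM in D30. The leukocyte list, with CD3E, LYZ and SPI1 at or near 0, summed to 77.8 to 364 CPM over all libraries. It summed to 185 to 244 CPM in untreated SK-N-AS and 97.5 to 144 CPM in S2D30. In GIMEN it was 77.8 to 86.9 CPM untreated and 164 to 364 CPM in D30. Of its 6 genes 2 were tested in SK-N-AS, and at S2D30 they went opposite ways (3.18 and -7.73). The endothelial list summed to at most 27.7 CPM, and rose in GIMEN from 3.66 to 4.18 CPM to 21.7 to 27.7 CPM. The part of these shifts in the results below was not tested. In bulk RNA, fewer cells of a type and less RNA per cell cannot be told apart.

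The members did not move as a block. In stage 1, 8 of 34 tested members were higher and 13 lower than in untreated SK-N-AS, against a background over all genes of 17.6% higher and 22.4% lower. At S2D4, 18 were higher and 10 lower, against 30.9% and 32.2%. At S2D30, 16 were higher and 7 lower, against 33.8% and 36.5%. The members' median log2 fold changes were -0.06, 0.26 and 0.16 in turn, beside medians over all genes of -0.01, -0.02 and -0.03. From S1D4 to S2D4, 21 members were higher and 4 lower, against 28.3% and 26.8%, and from S2D4 to S2D30 it was 13 and 11, against 24.4% and 26.9%. The members' medians in these steps were 0.47 and 0.10. Without S2D4 library 4 the counts were 19 and 4 (median 0.37) and 16 and 12 (median 0.21). In GIMEN the balance was the other way, with 7 of 34 tested members higher and 24 lower after 30 days, a median of -0.51 beside 0.02 over all genes, and a background of 35.5% higher and 36.0% lower. CA9 did not pass the count filter in SK-N-AS and EGLN3 did not pass it in GIMEN. PDK4 passed in GIMEN only through the treated libraries and is 1 of the 7 higher there. Libraries of the compared groups did not overlap for 17, 21 and 23 of the 34 tested members in S1D4, S2D4 and S2D30 against untreated SK-N-AS, where the background over all genes was 38.2%, 51.2% and 66.4%. They did not overlap for 22 from S1D4 to S2D4 (background 49.5%), for 24 from S2D4 to S2D30 (50.3%) and for 32 of 34 in GIMEN (75.4%).

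**Figure D1:**
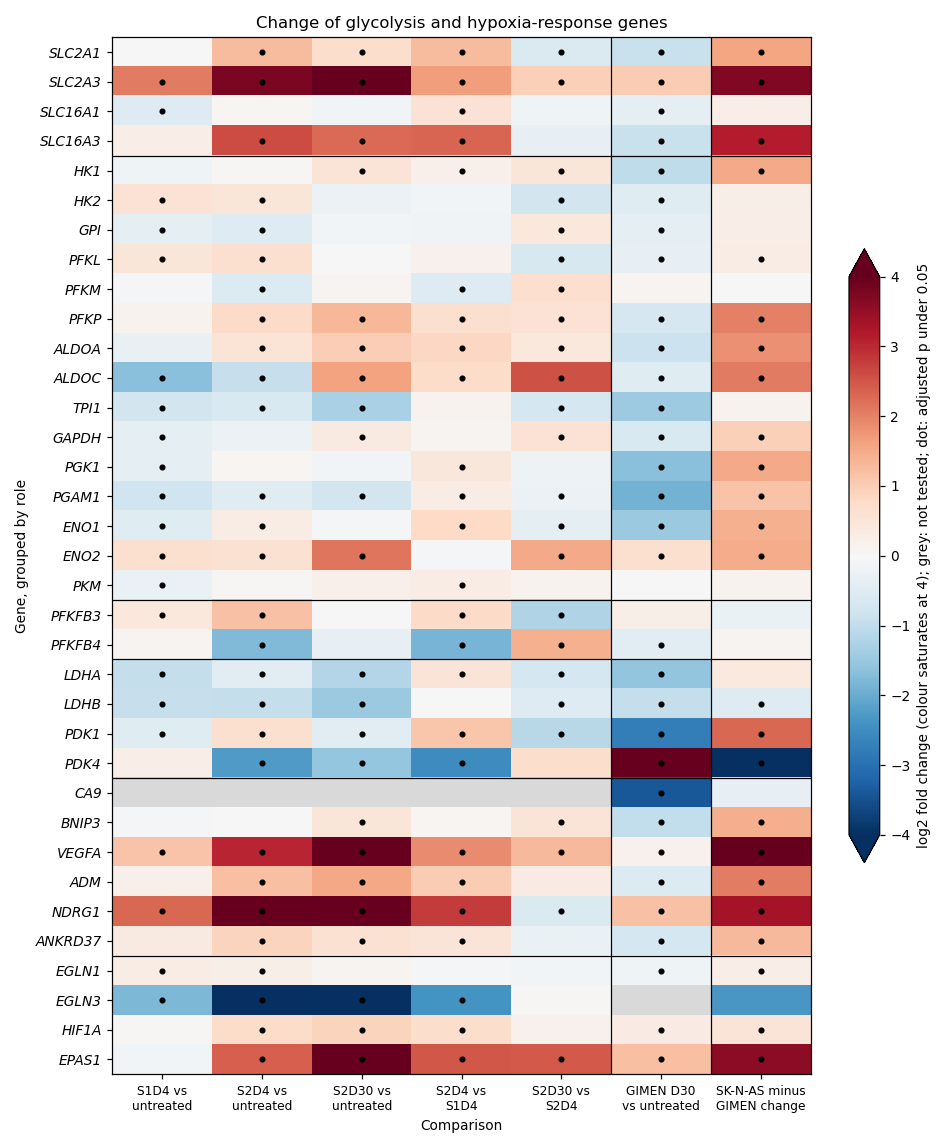
Log2 fold change of each member (rows, by role) in each comparison (columns); colours run from blue (lower) to red (higher), dots mark an edgeR adjusted p under 0.05, and grey cells were not tested. The first 3 SK-N-AS columns share the untreated libraries, and the last column is the SK-N-AS change minus the GIMEN change, positive for 10 of the 15 glycolytic enzymes that passed the test.

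HIF binds a short core that reads ACGTG or GCGTG. The members' promoters were therefore read in RefSeq (GRCh38.p14), from 250 bases before to 50 after each gene's start. Of the 35 members 31 matched by symbol, all but SLC2A3, SLC16A1, VEGFA and NDRG1. ACGTG or GCGTG, on either strand, stood in 22 of the 31 windows (71.0%), and in 48.4% of all 27305 windows of 300 bases. ACGTG was in 38.7% of the members' windows against 21.6% of all, and GCGTG in 48.4% against 36.3%. The members' windows were also richer in G and C, with a median of 69.7% against 58.3%. Windows matched for base composition were not compared. The full palindrome CACGTG, which holds ACGTG on both strands and is also the E-box that MYC proteins bind, was in 16.1% against 7.4%. A match is a description of the letters and shows no binding. The 7 stretches of 60 bases below belong to members whose changes are described later. ANKRD37, BNIP3, LDHA, PGK1, HK2 and CA9 read lower after 30 days in GIMEN, and ENO2 rose in both lines. HK2 was called higher early in SK-N-AS, with overlap and with calls lost without single libraries. CA9 was tested in GIMEN only. Capitals mark the core on either strand, where CACGT and CACGC are its reverse complements.
ANKRD37: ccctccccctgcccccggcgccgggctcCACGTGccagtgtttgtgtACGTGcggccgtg
BNIP3: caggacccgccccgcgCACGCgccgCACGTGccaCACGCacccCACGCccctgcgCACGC
LDHA: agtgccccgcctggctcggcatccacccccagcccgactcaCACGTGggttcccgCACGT
PGK1: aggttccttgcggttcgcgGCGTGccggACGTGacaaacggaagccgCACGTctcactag
ENO2: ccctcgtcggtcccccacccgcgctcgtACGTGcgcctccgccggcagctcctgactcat
HK2: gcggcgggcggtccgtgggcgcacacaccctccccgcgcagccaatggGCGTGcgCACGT
CA9: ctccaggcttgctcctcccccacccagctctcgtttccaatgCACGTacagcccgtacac
ANKRD37 is chr4:185396651-185396710 (plus strand, 190 to 131 bases before the start), BNIP3 chr10:131982023-131982082 (minus strand, 159 to 100 bases before the start), LDHA chr11:18394435-18394494 (plus strand, 128 to 69 bases before the start), PGK1 chrX:78104018-78104077 (plus strand, 230 to 171 bases before the start), ENO2 chr12:6914434-6914493 (plus strand, 146 to 87 bases before the start), HK2 chr2:74834024-74834083 (plus strand, 103 to 44 bases before the start) and CA9 chr9:35673868-35673927 (plus strand, 60 to 1 bases before the start). BNIP3 held 5 matches within its 60 bases and ENO2 held 1. No match to either word was found in the windows of HK1, PFKM, PFKP, TPI1, PGAM1, SLC16A3, PDK1, PDK4 and EGLN3, which says only that these letters are not there.

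Of the members outside the HIF machinery and its further targets, SLC2A3 had the widest change in SK-N-AS. SLC2A3, the high-affinity glucose transporter GLUT3 of neurons, read 7.24, 6.68, 6.11 and 5.80 CPM in the 4 untreated SK-N-AS libraries and 26.4, 22.2, 29.4 and 32.7 CPM in S1D4. It read 93.2, 83.01, 87.1 and 95.1 CPM in S2D4 and 159, 183, 188 and 165 CPM in S2D30. No library of a later stage overlapped with an earlier one. The log2 fold changes against untreated cells were 2.07 ± 0.12 SE in S1D4 (edgeR adjusted p = 3.68e-09), 3.76 ± 0.12 SE in S2D4 (edgeR adjusted p = 8.3e-13) and 4.71 ± 0.13 SE in S2D30 (edgeR adjusted p = 3.46e-14), the last a 26.1-fold rise. GIMEN also rose, from 59.5, 58.1 and 52.9 CPM to 154, 87.6 and 106 CPM (log2 fold change 1.00 ± 0.16 SE, edgeR adjusted p = 0.000166). Of its exonic 75-base words 8.11% are shared with other genes, mainly its neighbour SLC2A14, and the counting rules for shared reads are not given in the sources used here.

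SLC2A1, the widely expressed glucose transporter GLUT1, followed another course. Untreated SK-N-AS libraries read 60.1, 49.1, 40.1 and 40.2 CPM and S1D4 libraries 56.1, 47.8, 42.9 and 45.8 CPM, which overlapped (log2 fold change -0.01, edgeR adjusted p = 0.979). S2D4 read 111, 112, 116 and 129 CPM, above every untreated and S1D4 library (1.27 ± 0.12 SE, edgeR adjusted p = 1.43e-07, against untreated). S2D30 read 79.1, 77.9, 76.2 and 83.4 CPM, still above every untreated library but below every S2D4 library (-0.57 ± 0.12 SE, edgeR adjusted p = 0.000857, against S2D4). In GIMEN the same transporter fell from 299, 288 and 297 to 165, 179 and 144 CPM (-0.88 ± 0.08 SE, edgeR adjusted p = 1.07e-06). The ratio of SLC2A3 to SLC2A1 counts therefore rose in every treated group, by 2.05, 2.47 and 3.99 on the log2 scale in S1D4, S2D4 and S2D30 and by 1.85 in GIMEN, with no overlap between treated and untreated libraries in any of the 4.

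The lactate exporter SLC16A3 (MCT4), the low-affinity carrier of cells with high lactate output, read 19.4, 18.1, 5.77 and 6.56 CPM in untreated SK-N-AS, so libraries 1 and 2 lay well above libraries 3 and 4. S1D4 libraries read 15.3, 15.01, 16.03 and 15.5 CPM, inside that span (log2 fold change 0.27, edgeR adjusted p = 0.497). S2D4 read 66.6, 72.1, 80.2 and 94.7 CPM and S2D30 67.1, 55.6, 56.3 and 68.4 CPM, all above the untreated libraries (2.60 ± 0.30 SE, edgeR adjusted p = 1.24e-06, and 2.26 ± 0.30 SE, edgeR adjusted p = 3.62e-06). With a term that sets libraries 3 and 4 of the untreated and S1D4 groups apart, these 2 changes were 2.74 and 2.40. GIMEN fell from 7.17, 6.83 and 8.30 to 4.11, 4.44 and 3.72 CPM (-0.89 ± 0.16 SE, edgeR adjusted p = 0.000444). SLC16A1 (MCT1), which carries lactate in either direction, read 76.9 to 102 CPM in untreated SK-N-AS, fell in S1D4 (-0.52 ± 0.09 SE, edgeR adjusted p = 0.000184) and stood at 0.07 and -0.11 in S2D4 and S2D30, neither past the threshold. It fell in GIMEN (-0.39 ± 0.08 SE, edgeR adjusted p = 0.00121).

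**Figure D2:**
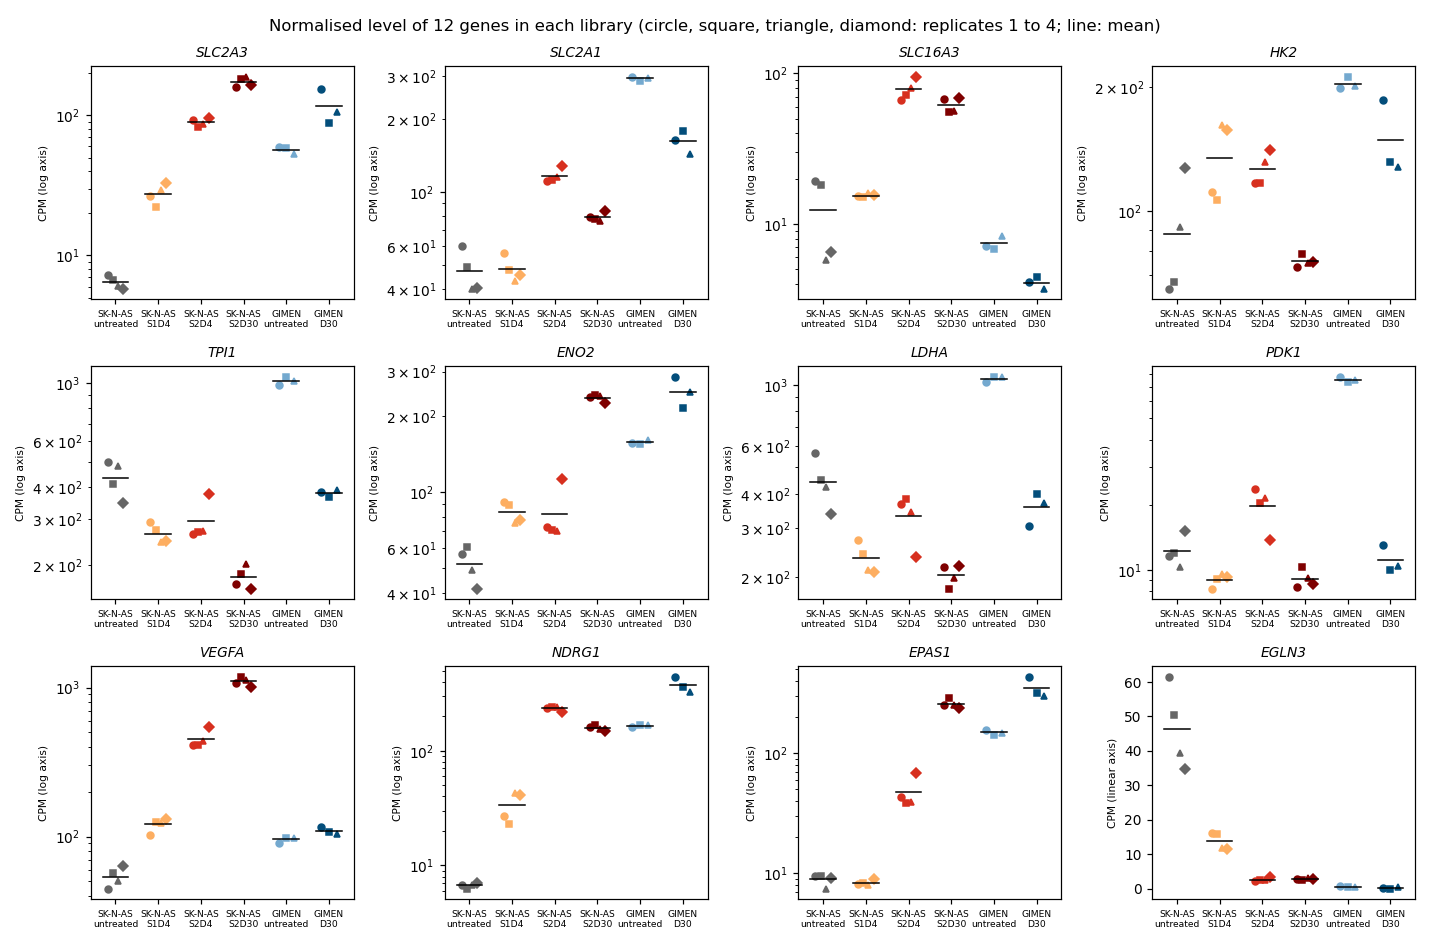
CPM of 12 members in each of the 22 libraries, with 1 panel per gene (log axes, except EGLN3 on a linear axis because 1 D30 library held no count); marker shapes give replicates and lines the group means. SLC2A3, VEGFA and NDRG1 separate treated from untreated SK-N-AS without overlap, while library 4 of S2D4 lies away from the other 3 for TPI1, ENO2, LDHA, PDK1 and EPAS1.

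At S2D30, 6 of the 15 glycolytic enzymes were higher and 2 lower than in untreated SK-N-AS, with a median of 0.12. The share higher was near that over all genes (33.8%, with 36.5% lower). In S1D4, 3 enzymes were higher and 8 lower, beside 17.6% and 22.4% of all genes. In S2D4 it was 6 and 5, beside 30.9% and 32.2%. ENO2, the neuronal enolase, read 57.2, 61.04, 49.2 and 41.6 CPM in untreated cells, 91.9, 88.9, 75.6 and 77.3 CPM in S1D4 and 72.7, 70.8, 70.1 and 113 CPM in S2D4. S2D30 libraries read 237, 242, 241 and 224 CPM, above all others of the line (2.14 ± 0.15 SE, edgeR adjusted p = 2.27e-09). The rises in S1D4 (0.65 ± 0.15 SE, edgeR adjusted p = 0.00245) and S2D4 (0.61 ± 0.15 SE, edgeR adjusted p = 0.00194) were smaller, and the S2D4 value was 0.41 without library 4. ENO2 rose in GIMEN as well, from 156, 155 and 161 to 286, 215 and 248 CPM (0.64 ± 0.09 SE, edgeR adjusted p = 5.6e-05). It was the single glycolytic enzyme of the 15 that passed the test as higher in GIMEN.

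ENO1, the ubiquitous enolase, did not share that rise. It read 878, 695, 721 and 529.5 CPM in untreated SK-N-AS, 558, 531, 488 and 479 CPM in S1D4, 882, 894, 909.5 and 876 in S2D4 and 698, 695, 726 and 685 in S2D30. The fall in S1D4 passed (-0.49 ± 0.12 SE, edgeR adjusted p = 0.00344), the S2D30 value did not (-0.05, edgeR adjusted p = 0.726), and the small rise at S2D4 (0.30 ± 0.12 SE, edgeR adjusted p = 0.0352) lost its call without untreated library 2, 3 or 4 or S2D4 library 1, 2 or 3, with 0.19 (adjusted p = 0.0737) without untreated library 4. In GIMEN ENO1 fell from 1479, 1575 and 1518 to 594, 589 and 495 CPM (-1.47 ± 0.08 SE, edgeR adjusted p = 2.21e-08). The log2 ratio of ENO2 to ENO1 rose by 1.12 in S1D4, 2.18 in S2D30 and 2.11 in GIMEN without overlap, while in S2D4 it rose by 0.27 with overlap, or by 0.09 without library 4.

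Phosphofructokinase, which commits sugar to glycolysis, is built from liver (PFKL), muscle (PFKM) and platelet (PFKP) subunits. PFKP read 124, 121, 93.8 and 98.2 CPM in untreated SK-N-AS and 119.9, 113, 128 and 129 CPM in S1D4, then 176, 200.1, 198 and 196 CPM in S2D4 and 278, 295, 297 and 268 CPM in S2D30. The last 2 groups lay above all untreated libraries (0.78 ± 0.10 SE, edgeR adjusted p = 2.33e-06, and 1.34 ± 0.10 SE, edgeR adjusted p = 2.2e-09). PFKL instead rose early, from 131, 145, 123 and 135 CPM in untreated cells to 177, 189.5, 191 and 196 in S1D4 and 174, 186, 194 and 296 in S2D4, and was back among the untreated libraries in S2D30 at 129, 146, 138 and 126 CPM. Its changes were 0.47 ± 0.13 SE in S1D4 (edgeR adjusted p = 0.00803), 0.64 ± 0.13 SE in S2D4 (edgeR adjusted p = 0.000421) and -0.02 in S2D30, and the S2D4 change was 0.43 without library 4. The S1D4 rise of PFKL was 0.25 once trends over GC content and length were removed. PFKM fell at S2D4 only among the 3 comparisons with untreated cells (-0.56 ± 0.10 SE, edgeR adjusted p = 0.000179), from 95.3 to 113 to 63.3 to 87.6 CPM, and read 112 to 117 CPM in S2D30. In GIMEN PFKP fell from 339.9, 332 and 341 to 233, 215 and 193 CPM (-0.69 ± 0.07 SE, edgeR adjusted p = 4.65e-06), PFKL fell (-0.34 ± 0.06 SE, edgeR adjusted p = 0.000372) and PFKM stood at 0.12 (edgeR adjusted p = 0.089). The log2 ratio of PFKP to PFKL rose by 1.37 in S2D30 and fell by 0.35 in GIMEN, both without overlap.

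The aldolases cleave fructose 1,6-bisphosphate. ALDOC, the brain aldolase, read 12.5, 8.70, 8.82 and 5.52 CPM in untreated SK-N-AS and fell to 2.89, 3.81, 2.66 and 2.04 CPM in S1D4 (-1.67 ± 0.23 SE, edgeR adjusted p = 2.65e-05). S2D4 read 5.12, 5.64, 4.61 and 3.95 CPM, still lower as a group though 1 library overlapped (-0.92 ± 0.22 SE, edgeR adjusted p = 0.00152), and S2D30 read 29.8, 27.7, 30.4 and 24.6 CPM, above all others of the line (1.62 ± 0.21 SE, edgeR adjusted p = 3.51e-06). The step from S2D4 to S2D30 was 2.54 ± 0.22 SE, edgeR adjusted p = 1.13e-07, or 2.45 without S2D4 library 4. ALDOA, the main form, read 813, 661, 716 and 482 CPM in untreated cells, 1017, 1024, 1023 and 944 in S2D4 and 1287, 1425, 1472 and 1230 in S2D30 (0.55 ± 0.13 SE, edgeR adjusted p = 0.00145, and 0.98 ± 0.13 SE, edgeR adjusted p = 3.77e-06). In GIMEN both fell, ALDOA by 0.86 and ALDOC by 0.48 on the log2 scale. Of the ALDOA words of 75 bases 35.1% are shared with other genes and 13.3% of its exons have a gene on the other strand and 42.3% one on the same strand, so its level may include reads of others. A gene on the other strand lies over 10.1% of the ALDOC and 14.2% of the GAPDH exons.

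TPI1, which interconverts the 2 triose phosphates, was lower than in untreated SK-N-AS at every stage. It read 500.4, 409, 479 and 348 CPM in untreated SK-N-AS, 293, 273, 245 and 249 CPM in S1D4, 264, 269, 271 and 374 in S2D4 and 170.4, 185, 203 and 163 in S2D30. The S2D30 libraries lay below all others (-1.31 ± 0.13 SE, edgeR adjusted p = 1.91e-07), and the S2D4 fall of -0.60 was -0.73 without library 4 and -0.38 with GC and length trends removed. PGAM1, the phosphoglycerate mutase, was also below untreated cells at every stage. It read 325 to 457 CPM untreated and 216 to 248, 272 to 293 and 217 to 263 CPM in turn. Its changes from untreated were -0.79 ± 0.10 SE in S1D4 (edgeR adjusted p = 1.1e-05) and -0.73 ± 0.10 SE in S2D30 (edgeR adjusted p = 3.95e-06). Between S1D4 and S2D4 PGAM1 rose without overlap. In GIMEN TPI1 fell from 981, 1057 and 1017 to 384, 367 and 389 CPM (-1.45 ± 0.06 SE, edgeR adjusted p = 4.58e-09) and PGAM1 from 822, 880.1 and 863 to 232, 248 and 219 CPM (-1.90 ± 0.07 SE, edgeR adjusted p = 8.33e-10). These 2 were the enzymes of the 15 that were lower in each of the 4 treated groups. Of the PGAM1 words of 75 bases 28.0% are shared with other genes, PGAM4 among them.

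PGK1, which makes the first ATP of the pathway, and GAPDH, the step before it, parted between the lines. PGK1 read 563, 467, 481 and 414 CPM in untreated SK-N-AS and 441, 469.8, 482 and 421 CPM in S2D30, which overlapped (-0.12, edgeR adjusted p = 0.376). In between, S1D4 libraries read 418, 382, 356 and 357.5 CPM and S2D4 libraries 549, 576, 553 and 387 CPM. In GIMEN it fell from 950.2, 990.1 and 949 to 310.5, 305 and 308 CPM (-1.67 ± 0.06 SE, edgeR adjusted p = 8.11e-10). GAPDH read 2665, 2173, 2311 and 1639 CPM in untreated SK-N-AS, 1879, 1711, 1706 and 1750 CPM in S1D4, 1893, 1912, 1871 and 2026 in S2D4 and 2813, 2958, 3096 and 2711 in S2D30. It was higher in S2D30 (0.36 ± 0.12 SE, edgeR adjusted p = 0.0133) and lower in S1D4 (-0.35 ± 0.12 SE, edgeR adjusted p = 0.0289), but the S1D4 call was lost without untreated library 1 (-0.21, adjusted p = 0.157) or 3, or S1D4 library 2, 3 or 4 (adjusted p from 0.062 to 0.0722). The S2D30 rise was 0.60 with GC and length trends removed. In GIMEN GAPDH fell from 5948, 6257 and 6090 to 4372, 4211 and 3579 CPM (-0.62 ± 0.08 SE, edgeR adjusted p = 4.75e-05). The gene is a common reference for transcript levels, and it differed between groups in both lines here.

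Hexokinase traps glucose in the cell. HK1, the constitutive form, read 180.0, 163, 200.5 and 174 CPM in untreated SK-N-AS and 262, 262, 272 and 267 CPM in S2D30, without overlap (0.53 ± 0.08 SE, edgeR adjusted p = 9.17e-06), and in GIMEN it fell from 309.9, 309.7 and 289.7 to 166, 146 and 148 CPM (-1.01 ± 0.07 SE, edgeR adjusted p = 1.1e-07). HK2, the inducible form, read 64.99, 67.5, 91.6 and 128 CPM in untreated SK-N-AS, with libraries 3 and 4 above libraries 1 and 2, and 111, 106, 162 and 158 CPM in S1D4. It passed as higher in S1D4 (0.59 ± 0.18 SE, edgeR adjusted p = 0.0148) and S2D4 (0.50 ± 0.18 SE, edgeR adjusted p = 0.0233), with overlap, and lost both calls without untreated library 2 (0.49, adjusted p = 0.053, and 0.39, adjusted p = 0.0815). The S1D4 call was also lost without S1D4 library 3 or 4 (adjusted p = 0.0569 and 0.0531), and the S2D4 call without untreated library 1 (0.0675). With the term that sets libraries 3 and 4 of the untreated and S1D4 groups apart, both passed (0.61, edgeR adjusted p = 6.23e-05, and 0.54, 7.36e-05), and the S2D30 change passed as lower (-0.21, 0.0492). S2D30 read 73.5, 78.8, 75.2 and 75.5 CPM, below every S2D4 library (-0.74 ± 0.18 SE, edgeR adjusted p = 0.00243). In GIMEN HK2 fell too, from 199, 212 and 202 to 186, 132 and 128 CPM, by -0.67 to -0.39 without single libraries. The log2 ratio of HK2 to HK1 fell by 0.73 in S2D30 and rose by 0.51 in GIMEN, both without overlap. The GIMEN ratio rose because HK1 fell further than HK2. GPI, which follows hexokinase, was lower in S1D4 and S2D4 (-0.37 and -0.52) and in GIMEN (-0.39) and stood at -0.11 in S2D30. Its S1D4 call was lost without untreated library 1 (-0.32, adjusted p = 0.0559), and its S2D4 change was -0.40 without S2D4 library 4. PKM, the last enzyme, read 1355 to 1806 CPM in untreated SK-N-AS and 1756 to 1991 CPM in S2D30, and 3352 to 3451 and 3372 to 3623 CPM in untreated and treated GIMEN (0.19 and 0.02, neither past the threshold).

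**Figure D3:**
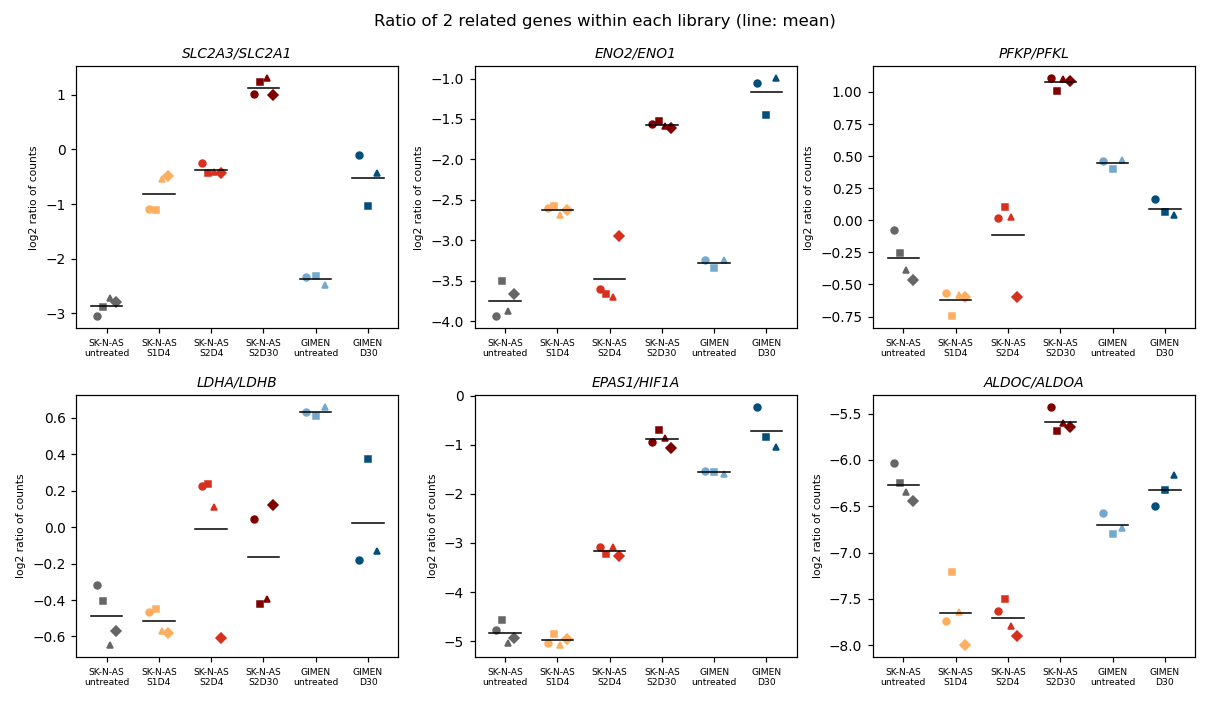
Log2 ratio of the counts of 2 related members in each of the 22 libraries, with 1 panel per pair (vertical axes); points are libraries and lines group means. Only changes of a ratio are read, because the 2 genes differ in length, and the SLC2A3 to SLC2A1 ratio is higher in each treated group than in the untreated libraries of its line.

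Fructose 2,6-bisphosphate activates phosphofructokinase and is set by the PFKFB enzymes. PFKFB3, the form with the strongest kinase side, rose in S1D4 (0.41 ± 0.13 SE, edgeR adjusted p = 0.0171) and further in S2D4 (1.18 ± 0.13 SE, edgeR adjusted p = 7.17e-07), from 87.4 to 96.2 CPM in untreated SK-N-AS to 176, 191, 192 and 286 CPM. The first call was lost without S1D4 library 3 or 4 (adjusted p = 0.0604 and 0.0606), and the second change was 1.00 without library 4 of S2D4. By S2D30 it read 89.5, 92.9, 93.6 and 90.7 CPM, the untreated range. PFKFB4 moved against it, from 6.18, 7.25, 6.34 and 6.35 CPM to 1.54, 2.55, 2.31 and 1.52 CPM in S2D4 (-1.77 ± 0.17 SE, edgeR adjusted p = 1.91e-07) and up again to 5.70, 5.73, 4.94 and 4.91 CPM in S2D30, just below the untreated libraries (-0.33, edgeR adjusted p = 0.0795). The log2 ratio of PFKFB4 to PFKFB3 accordingly fell by 2.95 in S2D4. In GIMEN PFKFB4 fell (-0.46 ± 0.10 SE, edgeR adjusted p = 0.00158), while PFKFB3 read 223, 214 and 211 CPM untreated and 169.9, 302 and 303 CPM treated (0.24, edgeR adjusted p = 0.239). It was D30 library 1 that lay low, and without it the PFKFB3 change was 0.47 (adjusted p = 1.43e-05).

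Enzymes at the pyruvate branch were mostly lower. LDHA, the lactate dehydrogenase subunit of glycolytic tissue, read 563, 449, 426 and 338 CPM in untreated SK-N-AS, 272, 242, 212 and 208 CPM in S1D4, 369, 383, 344 and 235 in S2D4 and 217, 181, 198 and 218 in S2D30. It fell in S1D4 (-0.96 ± 0.16 SE, edgeR adjusted p = 0.000201) and S2D30 (-1.16 ± 0.16 SE, edgeR adjusted p = 7.08e-06), without overlap in either. The S2D4 fall (-0.45 ± 0.16 SE, edgeR adjusted p = 0.0216) lost its call without library 4 of that group (-0.32, adjusted p = 0.0558) and without untreated library 1 (-0.28, adjusted p = 0.134). LDHB, the subunit of oxidative tissue, fell from 702, 594, 667 and 502 CPM to 375, 330.2, 315 and 311, 316, 325, 318 and 358 and 210.4, 243, 261 and 201 CPM (-1.47 ± 0.11 SE, edgeR adjusted p = 6.59e-09, in S2D30). Of the LDHB words of 75 bases 27.0% are shared with another gene, and 33.4% of its exons overlap a gene on the same strand. In GIMEN LDHA fell from 1024, 1068 and 1065 to 306, 399.5 and 371 CPM (-1.58 ± 0.09 SE, edgeR adjusted p = 4.7e-08) and LDHB from 660.5, 699 and 674 to 346, 309 and 406 CPM (-0.97 ± 0.09 SE, edgeR adjusted p = 2.52e-06). The LDHA to LDHB ratio fell by 0.61 on the log2 scale in GIMEN without overlap, while in each SK-N-AS stage it overlapped with the untreated libraries. In S2D4 the overlap came from library 4, and without it the ratio rose by 0.68.

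PDK1 and PDK4 are kinases that switch off pyruvate dehydrogenase. PDK1 read 11.7, 12.1, 10.3 and 15.2 CPM in untreated SK-N-AS, 8.23, 9.08, 9.62 and 9.26 CPM in S1D4, 23.8, 20.4, 21.6 and 13.7 in S2D4 and 8.33, 10.3, 9.24 and 8.64 in S2D30. PDK1 was higher in S2D4 (0.65 ± 0.15 SE, edgeR adjusted p = 0.0015), with library 4 among the untreated values. That rise was 0.80 without S2D4 library 4 and 0.32 with GC and length trends removed. In S2D30 PDK1 was lower (-0.47 ± 0.16 SE, edgeR adjusted p = 0.0138), a call lost without untreated library 4 (-0.35, adjusted p = 0.0625). In GIMEN PDK1 fell from 77.7, 73.8 and 74.9 to 13.1, 10.02 and 10.5 CPM, a change of -2.78 ± 0.09 SE, edgeR adjusted p = 4.42e-10. PDK4 was low throughout, at 2.47, 1.88, 3.44 and 5.19 CPM in untreated SK-N-AS, 0.419, 0.217, 0.423 and 1.55 in S2D4 and 1.36, 1.07, 0.860 and 1.22 in S2D30, and it was lower in both (-2.25 ± 0.49 SE, edgeR adjusted p = 0.000727, and -1.55 ± 0.47 SE, edgeR adjusted p = 0.00741). The S2D4 fall was -3.19 without library 4. Untreated GIMEN held no PDK4 count in any of the 3 libraries, where a floor of 3 counts allows up to 0.157 CPM, and treated GIMEN read 0.939, 0.888 and 1.73 CPM. The treated mean was at least 7.55-fold higher than that floor, which is set per library and covers counting error only.

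Of the further HIF targets, VEGFA and NDRG1 passed the test as higher than untreated SK-N-AS at every stage. VEGFA, the main angiogenic growth factor, read 44.8, 56.9, 50.1 and 63.7 CPM in untreated SK-N-AS and 102, 126, 124 and 131 CPM in S1D4. It read 411, 415, 436 and 547 CPM in S2D4 and 1080, 1181, 1129 and 1015 CPM in S2D30, each stage above the one before without overlap. The changes were 1.14 ± 0.12 SE in S1D4 (edgeR adjusted p = 2.18e-06), 3.04 ± 0.13 SE in S2D4 (edgeR adjusted p = 9.78e-12) and 4.32 ± 0.13 SE in S2D30 (edgeR adjusted p = 1.36e-13). In GIMEN VEGFA read 91.2, 98.3 and 97.5 CPM and 116, 107 and 104 CPM. That rise (0.16 ± 0.06 SE, edgeR adjusted p = 0.0359) was lost without any of the 3 untreated GIMEN libraries (adjusted p from 0.0746 to 0.179) or without D30 library 1 (0.0937), and it turned to -0.06 with GC and length trends removed.

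NDRG1, a stress-responsive gene linked to growth arrest and differentiation, read 6.77, 6.29, 6.82 and 7.05 CPM in untreated SK-N-AS and 26.8, 22.8, 42.9 and 41.5 CPM in S1D4. It reached 236, 241, 239 and 219.5 CPM in S2D4 and 162, 166, 155 and 149.5 CPM in S2D30. The rise was 33.8-fold at S2D4 (5.08 ± 0.18 SE, edgeR adjusted p = 1.63e-12) and 22.9-fold at S2D30 (4.52 ± 0.17 SE, edgeR adjusted p = 1.47e-12), with every S2D30 library below every S2D4 library (-0.56 ± 0.15 SE, edgeR adjusted p = 0.00413). GIMEN rose from 160.0, 166 and 167 to 441, 360.5 and 324 CPM (1.16 ± 0.10 SE, edgeR adjusted p = 7.11e-07).

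CA9, the membrane carbonic anhydrase used as a marker of hypoxic tumour cells, held 0 to 4 counts in each SK-N-AS library of every group and was not tested there. In GIMEN it read 76.2, 83.9 and 78.8 CPM untreated and 7.87, 6.98 and 8.22 CPM after 30 days, without overlap (-3.40 ± 0.09 SE, edgeR adjusted p = 4.8e-11). Of its exons 38.5% have a gene on the other strand, and the counting is not stated to use strand. The core shown above for CA9 is a single match next to the gene's start.

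BNIP3, a mitophagy receptor, read 67.4, 60.3, 63.8 and 58.1 CPM in untreated SK-N-AS, and its changes of -0.08 in S1D4 and -0.01 in S2D4 did not pass the test. S2D30 read 87.1, 87.8, 94.6 and 91.1 CPM, above all others of the line (0.49 ± 0.08 SE, edgeR adjusted p = 2.12e-05), and GIMEN fell from 109, 116 and 111 to 59.2, 57.2 and 55.4 CPM (-0.99 ± 0.06 SE, edgeR adjusted p = 4.05e-08). ANKRD37, a small ankyrin-repeat protein and early hypoxia target, rose in S2D4 (0.88 ± 0.15 SE, edgeR adjusted p = 6.9e-05, or 0.67 without S2D4 library 4) and S2D30 (0.62 ± 0.15 SE, edgeR adjusted p = 0.00135). It read 8.74 to 10.2 CPM untreated and 13.1 to 16.2 CPM in S2D30. S1D4 libraries read 11.2 to 13.7 CPM, above every untreated library, but that change did not pass the threshold. ANKRD37 fell in GIMEN (-0.71 ± 0.13 SE, edgeR adjusted p = 0.000398, or -0.47 with GC and length trends removed). Of the ANKRD37 exons 35.2% have a gene on the other strand. ADM, which encodes the vasodilator adrenomedullin, read 4.67, 4.41, 1.43 and 1.34 CPM in untreated SK-N-AS, 3.96, 5.48, 4.85 and 14.03 CPM in S2D4 and 8.07, 9.72, 9.69 and 8.21 CPM in S2D30. The S2D30 rise passed without overlap (1.54 ± 0.41 SE, edgeR adjusted p = 0.00335), whereas the S2D4 rise (1.21 ± 0.41 SE, edgeR adjusted p = 0.0169) was 0.63 without S2D4 library 4 (adjusted p = 0.121) and 1.00 without untreated library 3 (0.0538). ADM fell in GIMEN (-0.54 ± 0.10 SE, edgeR adjusted p = 0.000545). All 3 of BNIP3, ANKRD37 and ADM were thus higher at S2D30 in SK-N-AS and lower after 30 days in GIMEN.

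The oxygen-regulated subunits themselves rose. EPAS1 read 9.44, 9.48, 7.44 and 9.15 CPM in untreated SK-N-AS and 8.07, 8.33, 7.97 and 8.91 CPM in S1D4, which overlapped. It read 42.9, 38.6, 39.1 and 68.5 CPM in S2D4 and 250.4, 288, 254 and 236 CPM in S2D30, so S2D30 lay above every earlier library. The changes were 2.38 ± 0.16 SE in S2D4 (edgeR adjusted p = 1.97e-09), or 2.14 without library 4, and 4.82 ± 0.17 SE in S2D30 (edgeR adjusted p = 7.85e-13), a 28.2-fold rise. GIMEN rose from 155, 143 and 149 to 433, 318 and 299 CPM (1.21 ± 0.12 SE, edgeR adjusted p = 2.54e-06). HIF1A, the ubiquitous alpha subunit, read 259, 226, 244 and 282 CPM in untreated SK-N-AS, 265, 242, 270.2 and 275 CPM in S1D4, 362, 359, 331 and 657 in S2D4 and 485, 466, 464 and 491 in S2D30. It rose in S2D4 (0.72 ± 0.16 SE, edgeR adjusted p = 0.000924, 0.44 without library 4), in S2D30 (0.88 ± 0.16 SE, edgeR adjusted p = 0.000125) and in GIMEN, from 449, 418 and 449.8 to 509.6, 573 and 619 CPM (0.34 ± 0.08 SE, edgeR adjusted p = 0.00233). The log2 ratio of EPAS1 to HIF1A rose by 1.67 in S2D4, 3.94 in S2D30 and 0.85 in GIMEN, each without overlap. HIF alpha subunits are controlled mainly at the protein level, which these data do not measure.

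EGLN3, the prolyl hydroxylase that HIF itself induces, went the other way. It read 61.5, 50.3, 39.4 and 34.8 CPM in untreated SK-N-AS and 16.02, 15.8, 11.6 and 11.6 CPM in S1D4, then 2.14, 2.50, 2.40 and 3.40 CPM in S2D4 and 2.63, 2.35, 3.17 and 2.69 CPM in S2D30. All treated libraries lay below all untreated ones (-1.79 ± 0.19 SE, edgeR adjusted p = 2.13e-06, in S1D4 and -4.14 ± 0.21 SE, edgeR adjusted p = 3.83e-11, in S2D30). In GIMEN the gene was low, at 0.825, 0.589 and 0.339 CPM untreated and 0.117, 0 and 0.385 CPM treated, and was not tested. EGLN1, the main hydroxylase of most cells, read 73.8 to 88.6 CPM in untreated SK-N-AS and 86.1 to 95.1 CPM in S2D30 (0.12, edgeR adjusted p = 0.129). It lay above every untreated library in S1D4 (95.3 to 103 CPM) and S2D4 (91.8 to 103 CPM). These changes ran from 0.24 to 0.34 and from 0.18 to 0.28 without single libraries. The log2 ratio of EGLN3 to EGLN1 fell by 2.05, 4.40 and 4.24 in S1D4, S2D4 and S2D30. Among 12 such pairs of related members, libraries did not overlap with untreated ones for 5 in S1D4, 8 in S2D4, 10 in S2D30 and 9 of the 10 with counts in GIMEN. Single genes did not overlap in 38.2%, 51.2%, 66.4% and 75.4% of cases, and ratios of unrelated genes were not computed. Without S2D4 library 4 the S2D4 count of pairs was 10.

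The 30-day change differed between the lines for most members. The interaction of line and treatment passed for 24 of 35, with 22 more positive in SK-N-AS and 2 more negative, against a background of 24.5% and 25.2%, and the members' median difference was 1.15 beside -0.02 over all genes. VEGFA differed by 4.14 ± 0.14 SE, edgeR adjusted p = 1.61e-12, SLC2A3 by 3.69 ± 0.21 SE, edgeR adjusted p = 6.84e-10 and EPAS1 by 3.59 ± 0.17 SE, edgeR adjusted p = 7.35e-11, and SLC2A3 and EPAS1 were higher in both lines. The VEGFA rise in GIMEN (0.16) was the one lost without single libraries. Members with opposite called directions were SLC2A1 (difference 1.57), SLC16A3 (3.13), HK1 (1.52), PFKP (2.01), ALDOA (1.82), ALDOC (2.08), GAPDH (0.96), BNIP3 (1.47), ADM (2.05) and ANKRD37 (1.31), all higher in SK-N-AS and lower in GIMEN. PDK4, 1 of the 2 more negative members, was lower in SK-N-AS, and its GIMEN change and fitted difference rest on untreated libraries with no count. For PGK1, PGAM1, ENO1 and PDK1 the difference (1.53, 1.15, 1.41 and 2.29) came with a called fall in GIMEN that was deeper than the SK-N-AS change. TPI1 and LDHA fell in both, with differences of 0.13 and 0.40 that did not pass (edgeR adjusted p = 0.581 and 0.122), and 95% intervals of -0.21 to 0.46 and -0.01 to 0.80. Of the 24 calls, 3 were lost when single libraries were left out. PFKL (0.30) was lost without untreated SK-N-AS library 3, S2D30 library 2, untreated GIMEN library 2 or D30 library 3 (adjusted p from 0.0535 to 0.0661). LDHB (-0.52) was lost without S2D30 library 1 or 4, untreated GIMEN library 1 or 3, or D30 library 3 (from 0.0532 to 0.0928). EGLN1 (0.27) was lost without untreated SK-N-AS library 2 or 3, S2D30 library 2 or 3, any untreated GIMEN library, or D30 library 1 or 2 (from 0.0612 to 0.0887). Dose, medium and serum differed between the lines, so line and protocol cannot be told apart.

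**Figure D4:**
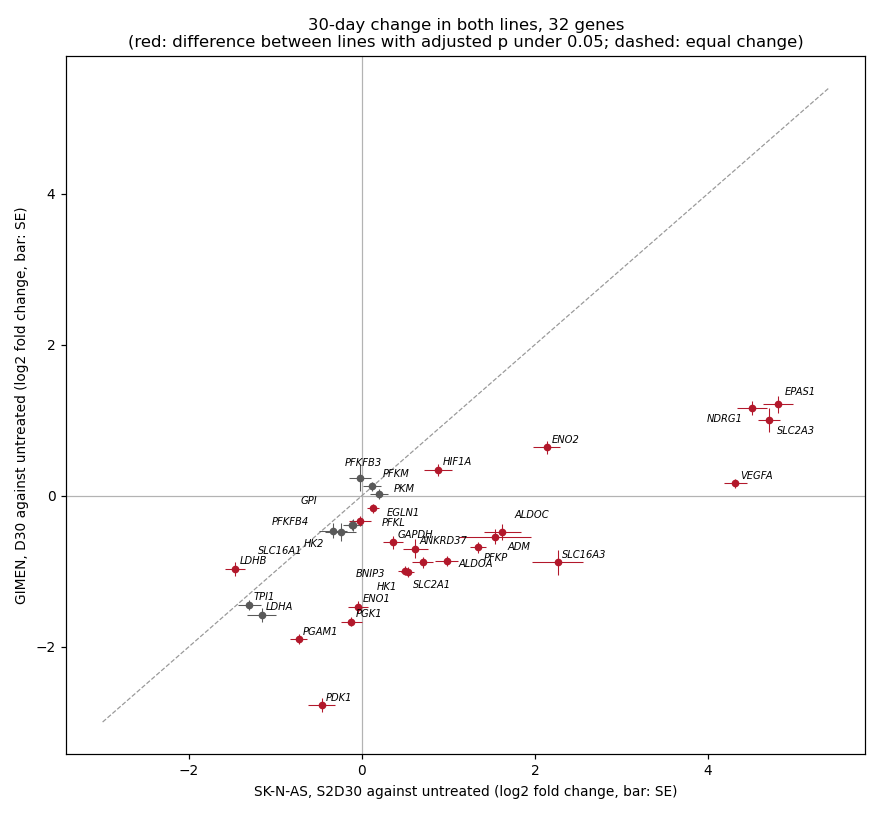
Log2 fold change after 30 days in SK-N-AS (horizontal) against that in GIMEN (vertical) for 32 members, with SE bars; red points differ between lines (edgeR adjusted p under 0.05) and the dashed line marks equal change. PDK4 is left out because untreated GIMEN held no count, and CA9 and EGLN3 because each was tested in only 1 line; SLC2A3, EPAS1, NDRG1 and VEGFA lie far to the right, and PDK1 lies lowest.

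Before treatment the lines already differed. Of 35 members 30 were lower and 2 higher in untreated SK-N-AS than in untreated GIMEN, against a background of 35.3% lower and 38.6% higher, with a median of -1.12 beside 0.05 over all genes. The 2 sets of untreated libraries did not overlap for 32 of the 35, against a background of 71.7%. Upper-quartile scaling moved the median over all genes to 0.20. CA9 was the furthest below GIMEN (-10.08), a fitted value that depends on the prior count because SK-N-AS libraries held 0 to 4 counts. The next lower members were NDRG1 (-4.62 ± 0.10 SE, edgeR adjusted p = 5.09e-16), EPAS1 (-4.08 ± 0.13 SE, edgeR adjusted p = 2.85e-14), ADM (-3.27 ± 0.31 SE, edgeR adjusted p = 4.3e-08) and SLC2A3 (-3.15 ± 0.16 SE, edgeR adjusted p = 1.03e-11). The 2 higher members were EGLN3 (6.28 ± 0.33 SE, edgeR adjusted p = 1.85e-11) and PDK4, whose mean in untreated SK-N-AS was at least 20.6-fold higher than the GIMEN floor. By mean level, 21 of 35 members were highest in untreated GIMEN among the 6 groups, 7 in treated GIMEN, 3 in S2D30, 2 in S2D4, 1 in S1D4 and 1 in untreated SK-N-AS. In S2D30, SLC2A3 read 159 to 188, NDRG1 149.5 to 166 and EPAS1 236 to 288 CPM. Untreated GIMEN read 52.9 to 59.5, 160.0 to 167 and 143 to 155 CPM. SLC2A3 and EPAS1 thus lay above the untreated GIMEN range, and NDRG1 overlapped with it. ADM stayed below it, at 8.07 to 9.72 against 26.6 to 30.9 CPM. CA9 held no count in S2D30, against 76.2 to 83.9 CPM in untreated GIMEN.

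Other genes of the same pathways were read from lists of known genes with the same test. Of 37 tested further hypoxia-response genes, 26 were higher and 6 lower at S2D30, while in GIMEN 10 of 34 were higher and 16 lower. Over all genes the shares were 33.8% higher and 36.5% lower at S2D30 and 35.5% and 36.0% in GIMEN. STC1, a secreted glycoprotein, had the widest change of that list. It read 3.002 ± 1.25 CPM in untreated SK-N-AS (mean ± SD, n = 4), 2703 ± 903 in S2D4 and 2791 ± 336 in S2D30 (log2 fold change 9.81 ± 0.39 SE, edgeR adjusted p = 2.1e-12), and rose in GIMEN too, from 87.7 ± 3.68 to 2735 ± 376 (n = 3, 4.94 ± 0.11 SE, edgeR adjusted p = 1.82e-11). The circadian repressors BHLHE40 and BHLHE41, both known HIF targets, rose at S2D30 (5.89 ± 0.24 SE, edgeR adjusted p = 2.38e-12, and 5.45 ± 0.26 SE, edgeR adjusted p = 1.68e-11) and fell in GIMEN (-0.25 and -0.80). HILPDA, a lipid-droplet protein, fell in both lines (-1.85 and -1.64).

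Within the HIF machinery, CITED2, which competes with HIF for its coactivators, was higher at S2D30 (3.21 ± 0.15 SE, edgeR adjusted p = 1.48e-11) and in GIMEN (1.32 ± 0.09 SE, edgeR adjusted p = 2.27e-07), and HIF3A, an alpha subunit with inhibitory forms, was higher in every treated group (2.33, 2.42, 2.64 and 1.34). VHL, which recognises hydroxylated HIF, rose by 0.38 in S2D30 and 0.47 in GIMEN. Of 14 HIF regulators 5 were higher and 5 lower at S2D30, near the background of 33.8% and 36.5%. The pentose phosphate genes, which draw glucose 6-phosphate away for NADPH and ribose, were lower for 7 of 8 at S2D30 and 6 of 7 in GIMEN, with none higher, against backgrounds of 36.5% and 36.0% lower. Among them TKT, the transketolase, stood at -1.30 and -1.37, both past the threshold. PFKFB2, the PFKFB form of heart, rose at S2D30 (3.27 ± 0.24 SE, edgeR adjusted p = 2.48e-09) and in GIMEN (1.03 ± 0.13 SE, edgeR adjusted p = 2.46e-05). Glycogen genes diverged, with PYGL, the liver phosphorylase, lower in both lines (-2.78 and -1.21) and GBE1, the branching enzyme, higher in both (1.56 and 0.48). At pyruvate's entry to mitochondria, PDP1, the phosphatase that reverses the PDK reaction, rose from 18.7 ± 2.52 CPM to 211 ± 11.5 CPM at S2D30 (mean ± SD, n = 4, 3.46 ± 0.11 SE, edgeR adjusted p = 1.14e-13) and in GIMEN (0.56 ± 0.07 SE, edgeR adjusted p = 1.35e-05). PDK3 fell in both lines (-1.10 and -1.24). Of 13 genes of that step 6 were higher and 4 lower at S2D30, and 4 and 6 in GIMEN, beside 33.8% and 36.5%, and 35.5% and 36.0%, of all genes.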

How the data were processed

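Raw counts per gene were deposited by the authors in 1 table with a column per library, and per the table's header rows are gene symbols. That they are raw counts was checked on the values, which were whole numbers. The aligner, counter, build, annotation and strand setting are not given in the sources used here, so no gene coordinates are printed apart from RefSeq promoters. Shared 75-base words, exon overlaps, GC content and length were taken from GENCODE release 29, which may differ from the annotation used for counting. Totals of 16456484 to 37506800 counts set the precision, and floors of 3 counts cover counting error only. Groups came from the labels.

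Counts were scaled by TMM and tested with edgeR 4.0.16 (glmQLFit, glmQLFTest, filterByExpr, R 4.3.3) in models of 16 SK-N-AS libraries (15810 genes), 6 GIMEN libraries (13517) and, between lines, the 14 untreated and 30-day libraries (16246). Adjusted p-values follow Benjamini-Hochberg over all genes. The steps were tested on simulated data. Alternatives were DESeq2 1.42.0, other scalings and filters, a replicate block, GC and length trends, smaller models and leaving out each library. Full statistics go to called members with a log2 fold change of at least 1 in size and 10 CPM, to HIF1A, EPAS1 and GAPDH and to related pairs. Other genes from the lists were named after their values were seen. The members and lists were chosen with earlier results of these data known.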

Additional observations from a re-analysis of the deposited data

Results flagged for a closer look

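In 17 of 138 sets of 4 SK-N-AS libraries, 1 library lay far from the other 3 by Dixon's gap test, which chance gives in about 1 set in 20. Of these, 13 were library 4 of S2D4, whose adrenergic marker sum also stood apart. That library was highest for 10 members. It read 296.4 CPM for PFKL (the others 174.0 to 193.9), 286.5 for PFKFB3 (175.7 to 191.5), 374.5 for TPI1 (263.9 to 271.2), 113.3 for ENO2 (70.06 to 72.66) and 1910 for PKM (1605 to 1618). It also read 1.555 CPM for PDK4 (0.217 to 0.4235), 14.03 for ADM (3.957 to 5.48), 24.85 for ANKRD37 (14.59 to 16.23), 656.7 for HIF1A (331.1 to 362.3) and 68.55 for EPAS1 (38.63 to 42.87). It was lowest for 3 enzymes, with 119.6 CPM for GPI (169.2 to 178.8), 943.5 for ALDOA (1017 to 1024) and 386.9 for PGK1 (548.6 to 576.0). The other 4 sets were PFKP at 176.1 CPM in S2D4 library 1 (196.3 to 200.1), PFKFB4 at 7.253 in untreated library 2 (6.18 to 6.347), EGLN1 at 95.26 in S1D4 library 4 (102.4 to 102.8) and EPAS1 at 7.442 in untreated library 3 (9.155 to 9.481).

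For 24 members the 30-day change differed between the lines by the edgeR test of the difference itself, given here as the SK-N-AS log2 change minus the GIMEN one. Among the glycolytic enzymes the difference was 1.52 for HK1, 0.30 for PFKL, 2.01 for PFKP, 1.82 for ALDOA, 2.08 for ALDOC and 0.96 for GAPDH. Lower in the pathway it was 1.53 for PGK1, 1.15 for PGAM1, 1.41 for ENO1 and 1.48 for ENO2. Of the genes of lactate, transport and pyruvate entry, SLC2A1 differed by 1.57, SLC2A3 by 3.69, SLC16A3 by 3.13 and PDK1 by 2.29, while LDHB differed by -0.52. PDK4 had a fitted difference of -9.30, which depends on the prior count because untreated GIMEN libraries held 0 counts. Of the HIF machinery and its further targets, VEGFA differed by 4.14, EPAS1 by 3.59, NDRG1 by 3.34 and ADM by 2.05. BNIP3 differed by 1.47, ANKRD37 by 1.31, HIF1A by 0.52 and EGLN1 by 0.27.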

How the results depend on the processing

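Leaving out single libraries kept direction and call for 2163 member fold changes, lost 75 calls, gained 23 and turned 38 signs. The other settings kept 2498, lost 41, gained 30 and turned 32. Depth limits CA9 in SK-N-AS and EGLN3 and PDK4 in GIMEN, and the cause of the changes below was not tested. The median change of the members without single libraries ran from 0.2298 to 0.3415 in S2D4, 0.1259 to 0.2322 in S2D30, 0.3659 to 0.5132 for S2D4 against S1D4, 0.0182 to 0.2111 for S2D30 against S2D4 and -0.6653 to -0.5094 in GIMEN. For the line difference the median ran from 1.0594 to 1.2528 and the lower count from 1 to 3. Without S2D4 library 4, 17 members were higher and 9 lower in S2D4 (median 0.2665). Upper-quartile scaling gave medians of 0.1939 in S2D4, 0.3837 for S2D4 against S1D4 and 0.1616 for S2D30 against S2D4. No filter gave 0.3347 in S2D4 and 0.0296 for S2D30 against S2D4. DESeq2 size factors and DESeq2's test gave 0.1954 and 0.1944 in S2D30.

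Replicate numbers were shared by groups, but same-numbered libraries deviated together only in part (untreated and S1D4 correlations 0.305, 0.276, 0.033 and 0.311), so the numbers are not taken as pairs. With a replicate block, 9 members were higher and 12 lower in S1D4 (median -0.0574), 18 and 10 in S2D4 (0.2676), 16 and 7 in S2D30 (0.1622), and 6 and 24 in GIMEN (-0.5242). With the block, 20 were higher and 4 lower for S2D4 against S1D4 (0.4614), 13 and 11 for S2D30 against S2D4 (0.0923), 21 and 2 for the line difference (1.163), and 2 and 30 between untreated lines (-1.1445).

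Signs turned mainly for changes near 0. SLC2A1 in S1D4 was 0.0176 with DESeq2 size factors, 0.0239 with upper quartiles, 0.0173 with DESeq2's test, 0.0189 with no filter, 0.0006 with the replicate block, 0.0086 with a term for the split and 0.0274 with the compared groups alone. In S2D4, upper quartiles gave HK1 -0.0278 and PKM -0.0287. BNIP3 there was 0.0231 with no filter, 0.0381 with GC and length trends removed and 0.0005 with the groups alone, and the trends gave GAPDH 0.0026 and PGK1 -0.0323. In S2D30, PFKL was 0.0185 with DESeq2 size factors, 0.0185 with its test, 0.0036 with no filter, 0.0754 with trends removed and 0.0029 with the groups alone. PFKFB3 there was 0.0132 with DESeq2 size factors or test, and the trends gave ENO1 0.0194 and EGLN1 -0.0336. For S2D4 against S1D4, BNIP3 was -0.0312 with upper quartiles and ENO2 0.123 with trends removed. In GIMEN, PKM was -0.0085 with no filter and VEGFA -0.0589 with trends removed. VEGFA is the 1 called member among the sign changes of these settings. The line difference of PFKM was 0.0048 with TMM leaving out both the members and the 30 most abundant genes. It was 0.0075 in a model of all 22 libraries, and that of CA9 was 0.3398 by DESeq2's test. Between untreated lines, upper quartiles gave PFKM 0.0723 and LDHB 0.002.

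Without single libraries, in S1D4 SLC2A1 ran from -0.0861 to 0.16, HIF1A from -0.0149 to 0.0886, PFKM from -0.0992 to 0.0122 and ADM from -0.0362 to 0.5695. In S2D4 BNIP3 ran from -0.0389 to 0.0598, HK1 from -0.0112 to 0.1 and PKM from -0.0246 to 0.1359. In S2D30 PFKL ran from -0.0609 to 0.0199, ENO1 from -0.1593 to 0.1036 and PFKFB3 from -0.0344 to 0.0018. For S2D4 against S1D4 ENO2 ran from -0.2374 to 0.0273, LDHB from -0.066 to 0.036, HK2 from -0.1917 to 0.0083 and PFKL from -0.0374 to 0.2503. EGLN3 ran from -0.0454 to 0.209 for S2D30 against S2D4, and for the line difference PFKM ran from -0.0595 to 0.0316 and CA9 from -0.6236 to 0.3234.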
